A study of Mus musculus and Rattus norvegicus with 53 samples.

Results

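Pmp22, Mbp, Mag, Mal, Prx, Cnp and Pllp encode proteins of the myelin sheath that Schwann cells (SCs) wrap around peripheral axons. They were taken by gene symbol and make up 7 of the 24016 genes listed in the mouse count files. tdTomato+ SCs were sorted from sciatic nerves of mice in which a Cre transgene of the neural crest lineage switches on a Rosa26 tdTomato reporter, so every group, intact ones included, carried both alleles. The mice were males and females aged 6 to 8 weeks, per the methods. In the pooled experiment, 4 libraries of intact contralateral nerve (iSCs), 4 of the distal stump (dSCs) and 4 of the nerve bridge (bSCs) were collected 6 days after transection, and per the methods nerves of 3 mice went into each sorted sample. In the single-nerve experiment, with 1 mouse per library, 5 intact libraries, 3 distal libraries at each of days 1, 2 and 4 and again at days 6, 8 and 10, and 3 bridge libraries at each of days 4, 6, 8 and 10 were measured. All of these are used here, whereas per the methods fewer intact single-nerve libraries remained after a filter on detected genes, and which ones is not given in the sources used here.

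In compact myelin the extracellular and cytoplasmic faces of the wrapped membrane are held together by proteins such as PMP22 and MBP, while MAG and CNP are known from non-compact membrane next to the axon and in channels through the sheath. MAL and plasmolipin (Pllp) are tetraspan proteins linked to lipid-rich membrane and its trafficking, and periaxin (Prx) ties the outer SC membrane to the basal lamina through a dystroglycan complex. After a nerve is cut, SCs separated from their axons shed myelin and return to a progenitor-like state. The transcription factors EGR2 and SOX10 are known to drive many myelin genes in SCs, including Pmp22, Mag and Prx.

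The genes sit at separate places in the mm9 build (NCBIM37). Pmp22 lies on chr11:62942484-62973049 (plus strand, 8 merged exons), Cnp on chr11:100436218-100453043 (plus strand, 6 exons), Mag on chr7:31684202-31699851 (minus strand, 13 exons) and Prx on chr7:28284343-28305233 (plus strand, 6 exons). Mal lies on chr2:127458962-127482431 (minus strand, 4 exons) and Pllp on chr8:97198795-97220142 (minus strand, 4 exons). The RefSeq promoter table used here covers 6 of the 7 genes. It was searched on both strands of the 250 bases before each listed start for the SOX motifs ACAAAG and AACAAT and the EGR motif GCGNGGGCG. ACAAAG was found once each in Mag, in 2 of its 3 starts, and in Cnp, whereas 16.5% of all 32851 promoter windows hold it. AACAAT, present in 9.42% of windows, and GCGNGGGCG, present in 4.7%, were found at none of the starts of the 6 genes. The windows of Mag and Cnp are shown because they hold the motif, and that of the first listed start of Pmp22 because it was the most abundant transcript of the 7 and its window holds none of the 3 motifs. They are written 5′ to 3′ along the gene, from GRCm38.p6, with ACAAAG or its reverse complement in capitals, and a match is a run of letters, not a binding site.
Mag, chr7:30914864-30915113, minus strand: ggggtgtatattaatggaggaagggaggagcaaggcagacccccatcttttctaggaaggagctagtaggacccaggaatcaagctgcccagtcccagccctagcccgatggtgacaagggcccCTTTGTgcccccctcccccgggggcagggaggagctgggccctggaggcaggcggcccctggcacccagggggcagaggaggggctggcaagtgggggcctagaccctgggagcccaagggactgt
Cnp, chr11:100574689-100574938, plus strand: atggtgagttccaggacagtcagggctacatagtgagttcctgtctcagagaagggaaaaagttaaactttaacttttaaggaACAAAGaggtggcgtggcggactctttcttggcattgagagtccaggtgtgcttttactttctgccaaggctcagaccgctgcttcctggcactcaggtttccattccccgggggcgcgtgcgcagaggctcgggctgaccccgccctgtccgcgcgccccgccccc
Pmp22, chr11:63128732-63128981, plus strand: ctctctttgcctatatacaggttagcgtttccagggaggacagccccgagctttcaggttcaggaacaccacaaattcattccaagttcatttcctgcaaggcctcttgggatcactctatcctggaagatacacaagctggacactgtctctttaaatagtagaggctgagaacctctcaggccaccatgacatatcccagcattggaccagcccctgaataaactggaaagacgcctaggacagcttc

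The pooled libraries held 11435463 to 22617054 counts over genes (median 13527755) and the single-nerve libraries 9240883 to 22426128 (median 13149913), without molecular identifiers. All 7 genes passed the filter on low counts in both experiments, among 13751 and 15519 genes tested. Levels are given as CPM, counts relative to library size after scaling by the trimmed mean of M values within each experiment, so levels of the 2 experiments are set side by side only. Several libraries stood apart. The day 4 distal and day 4 bridge libraries of animal 19 were far more alike than any other pair (Pearson r of log2 CPM 0.9945, chi-square per degree of freedom 3.902 against 46.152 for the next pair and 1.118 to 1.3 for lanes of 1 library), although they did not agree within sampling noise. The transcript Rn45s took 38.6% of counts in day 2 distal library 0, 37.5% in intact library 1, 33.8% in intact library 0 and 17.3% in day 1 distal library 1, and at most 6.47% in any other library. For 1 day 10 bridge library the labels' animal number gave a second partner to a distal library, and it was left out of the within-animal pairs. The SC markers Sox10, S100b and Erbb3 were detected in every library except Erbb3 in 1 single-nerve library, while fibroblast markers summed to 6963 to 34758 CPM in the libraries of both experiments. Because these are bulk samples, fewer cells of a type and less RNA per cell cannot be told apart.

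Transcripts of the 7 genes were far lower in both injured SC populations than in iSCs at day 6. Together they made up 2.54% to 6.66% of the counts of the pooled iSC libraries, but 0.0892% to 0.442% of those of dSCs and 0.0933% to 0.426% of those of bSCs. In dSCs the mean level of each gene was between 1.94% (Mal) and 14% (Cnp) of that in iSCs. In bSCs it was between 2.61% (Pmp22) and 14.5% (Cnp). All 7 genes passed the test as lower in dSCs than in iSCs (edgeR quasi-likelihood test, Benjamini-Hochberg adjusted p under 0.05 over all genes tested), where 2.69% of genes tested were lower, and 6 of 7 did so in bSCs, where 7.46% were lower. For each of the 7, all 4 injured libraries lay below all 4 intact libraries in both comparisons, which held for 9.41% of genes in dSCs and 14.5% in bSCs. The comparisons share the iSC libraries.

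Pmp22, whose product is a tetraspan protein of compact myelin that is dose-sensitive in human neuropathy, was at 31328, 37581, 43872 and 17402 CPM in iSCs of pools 1, 2, 4 and 5. In dSCs of pools 1, 2, 3 and 5 it was at 287, 583, 1442 and 375 CPM, and in bSCs at 593, 702, 1513 and 586 CPM. The injured and intact libraries were thus far apart, and the injured libraries of pool 3 were the highest in both sites. The log2 fold change was -5.60 in dSCs (SE 0.62, edgeR adjusted p = 0.000516) and -5.26 in bSCs (edgeR adjusted p = 0.0002).

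Mbp encodes the cytoplasmic protein that joins the inner faces of the membrane, and its symbol also takes in the longer golli transcripts of the same locus, which the counts do not tell apart. It was at 7493, 10038, 15322 and 4599 CPM in iSCs. It was at 494, 835, 2137 and 225 CPM in dSCs and at 254, 327, 1471 and 82.2 CPM in bSCs. Pool 3 again gave the highest injured level in each site. The log2 fold change was -3.34 in dSCs (SE 0.86, edgeR adjusted p = 0.0402) and -4.13 in bSCs (edgeR adjusted p = 0.0078).

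Mal was at 1990.4, 2491, 1629.7 and 759 CPM in iSCs. It was at 22.6, 2.96, 88.4 and 19.5 CPM in dSCs but at 131, 164, 215 and 90.3 CPM in bSCs, so that every bSC library was above every dSC library. Mal was the only one of the 7 for which the injured sites did not overlap. Its log2 fold change from iSCs was -5.69 in dSCs (SE 0.84, edgeR adjusted p = 0.0020) and -3.52 in bSCs (edgeR adjusted p = 0.0076). Pllp, which like Mal encodes a MARVEL-domain tetraspan protein, was at 870.5, 1114, 991 and 314 CPM in iSCs, at 22, 19.2, 49.6 and 17.3 CPM in dSCs and at 24.5, 17.3, 46.5 and 19.2 CPM in bSCs. Its injured libraries were nearly the same in both sites, with log2 fold changes of -4.93 in dSCs (SE 0.53, edgeR adjusted p = 0.0004) and -4.94 in bSCs (edgeR adjusted p = 0.0001).

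Mag, which encodes the adhesion molecule of the membrane facing the axon, was at 349, 475, 384 and 142 CPM in iSCs. In dSCs it was listed at 0 in pools 1 and 2 and at 30.1 and 1.12 CPM in pools 3 and 5, and in bSCs it was at 11.9, 14.1, 30.8 and 11.5 CPM. The dSC libraries ranged from no counts to a level near that of the highest bSC library, and the dSC library of pool 3 stood far above the others. The log2 fold change was -5.44 in dSCs (SE 1.46, edgeR adjusted p = 0.0468) and -4.31 in bSCs, where it missed the threshold (edgeR adjusted p = 0.0519). When libraries were blocked by pool, the bSC value passed (edgeR adjusted p = 0.0378), as it did with DESeq2 (adjusted p = 0.032). Without the dSC library of pool 3 the dSC log2 fold change was -9.81.

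Cnp, the gene of a phosphodiesterase of non-compact myelin, fell least of the 7 in both sites, from 2621, 3982, 2631 and 1118 CPM in iSCs to 336, 256, 569 and 289 CPM in dSCs and 250.02, 365, 696 and 193 CPM in bSCs. Its log2 fold changes were -2.84 (SE 0.47, edgeR adjusted p = 0.0040) and -2.78 (edgeR adjusted p = 0.0019). Prx was at 1284, 1562, 1804 and 751 CPM in iSCs, at 23.9, 97.6, 119.5 and 9.77 CPM in dSCs and at 21.4, 51.7, 213 and 2.05 CPM in bSCs. It had the widest relative spread among bSCs after injury, and pool 5 was lowest in both sites. Its log2 fold change was -4.43 in dSCs (SE 1.12, edgeR adjusted p = 0.0367) and -4.23 in bSCs (edgeR adjusted p = 0.0213).

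**Figure D1:**
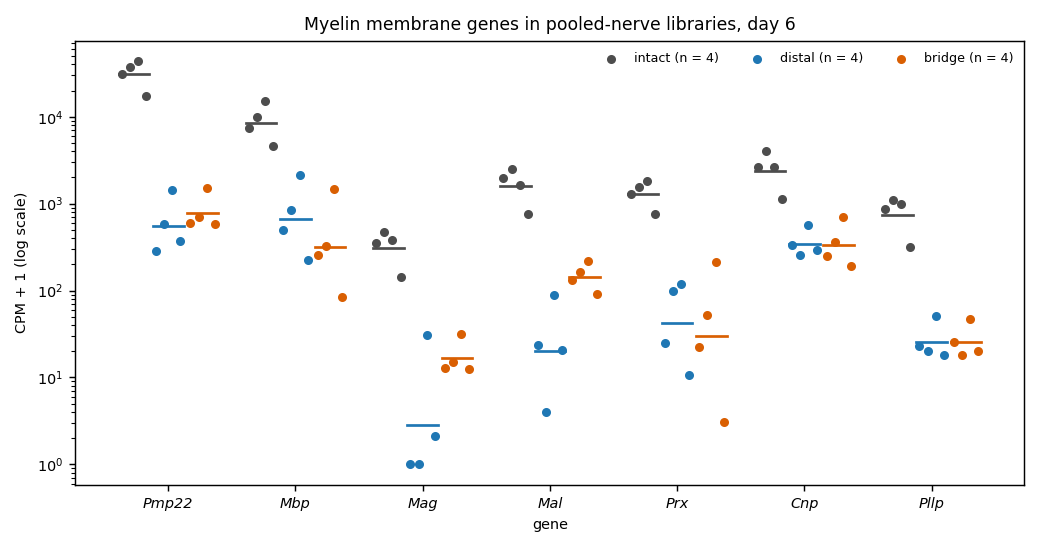
Levels of the 7 genes in the pooled libraries as CPM + 1 on a log axis, with 1 point per library and bars at the geometric mean in iSCs, dSCs and bSCs. Every intact point lies above every injured point, and for Mal alone the bSC points also lie above all dSC points.

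The calls in dSCs did not rest equally on the libraries. Those of Mbp, Mag and Prx were lost when the iSC library of pool 1, 2 or 4 or the dSC library of pool 1, 2 or 5 was left out, leaving 4 of 7, while without the dSC library of pool 3 only that of Prx was lost. Over all alternatives the adjusted p of Mbp, Mag and Prx reached 0.118, 0.127 and 0.104. Pmp22, Mal, Cnp and Pllp passed under every alternative tried, with adjusted p up to 0.0209 for Cnp. Without the injured library of pool 3, which has no intact partner, the log2 fold change of Pmp22 in dSCs was -6.29, that of Mal -6.84 and that of Mbp -4.18, and in bSCs that of Mbp was -5.35 and that of Prx -5.69. In bSCs without 1 library, 5 or 6 of the 7 passed.

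Bridge and distal SCs were compared directly to ask whether the site within the wound went with the level of the 7 genes. None of the 7 passed the edgeR test, which called 5.43% of all genes tested in either direction. At an unadjusted p under 0.05 there was 1 of the 7, against 2957 of the 13751 genes tested. DESeq2 called 1 of the 7 and 1939 of all genes. The gene at an unadjusted p under 0.05, and the one passing with DESeq2 (adjusted p = 0.0105), was Mal, with a mean of 150 ± 52.7 CPM in bSCs and 33.4 ± 37.7 CPM in dSCs (SD, n = 4 each). Its log2 difference was 2.17 (SE 0.72, edgeR adjusted p = 0.0932), and non-overlapping libraries with the higher level in bSCs were found for 6.77% of genes. Fibroblast markers summed to 8295 to 18073 CPM in bSCs and 22015 to 31900 CPM in dSCs, without overlap, and 2 of 5 passed as lower in bSCs (median log2 difference -2.42). Macrophage markers did not overlap either, at 1739 to 5097 CPM in bSCs and 7285 to 11774 CPM in dSCs, and the part of these cells in the difference of Mal was not tested. Without the dSC library of pool 3 both Mal and Mag passed, with log2 differences of 3.32 (edgeR adjusted p = 0.0173) and 5.50 (edgeR adjusted p = 0.0123). For Prx, Cnp and Pllp the log2 difference was 0.20, 0.05 and -0.01 with SEs of 0.97, 0.44 and 0.45, and its sign turned when the pool number was used as a block. For Pmp22 it was 0.34 (SE 0.51) and for Mbp -0.79 (SE 0.79), and for both the sign turned when 1 library was left out.

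Compared per kilobase of merged exons, Pmp22 was the most abundant of the 7 in pooled iSCs, at 13826 ± 4809 CPM per kb (SD, n = 4), followed by Mbp at 1114 ± 542. Mbp was divided by 8403 bases, which include the golli exons. Cnp was at 711 ± 322 CPM per kb, Mal at 618 ± 263, Pllp at 435 ± 187, Prx at 242 ± 81.1 and Mag at 139 ± 58.0. Pmp22 lay above Mbp by more than either SD, while Mbp, Cnp, Mal and Pllp each lay within 1 SD of a neighbour in this order. In the single-nerve intact libraries the same quantity was 3206 ± 2725 CPM per kb for Pmp22, 591 ± 360.0 for Mbp, 457 ± 626 for Pllp, 308 ± 260.2 for Mal, 256 ± 159 for Cnp, 54.6 ± 28.3 for Prx and 32.4 ± 20.2 for Mag (SD, n = 5). Pmp22 was again first and Mag last, while Pllp came after Mbp.

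The single-nerve libraries followed the genes from day 1. In their intact libraries the 7 genes made up between 0.677% and 2.15% of the counts. In distal SCs the mean level of 6 of the 7, all but Cnp, was lower at each of days 1, 2 and 4 than at the time before. The number of genes passing as lower than intact in distal SCs by the edgeR test was 0 of 7 at days 1 and 2, 5 at day 4, and 2 at each of days 6, 8 and 10, and with DESeq2 it was 0, 3, 7, 4, 5 and 5. By edgeR, 1 of the 7 was at an unadjusted p under 0.05 at day 1 and 4 were at day 2. Among the 15519 genes tested, 1048 and 1412 were at that p. Among all genes tested, 0% passed the edgeR test as lower at day 1 (0.180% passed in either direction), 0.0709% at day 2 and 0.515% at day 4. At days 6, 8 and 10 it was 0.0773%, 0.0258% and 0.0322%. In bridge SCs 4 of 7 passed at day 4 and 2 at each of days 6, 8 and 10, against 0.438%, 0.515%, 0.0580% and 0.406% of genes tested. The DESeq2 counts there were 7, 3, 6 and 3, where DESeq2 called 1286, 1431, 567 and 1355 of the 15519 genes in either direction. Every distal library lay below every intact one for 0 of the 7 genes at day 1, 4 at day 2, 7 at day 4, 4 at day 6, 4 at day 8 and 7 at day 10, against 1.42%, 2.87%, 3.60%, 2.93%, 2.31% and 2.02% of genes tested. In the bridge this held for 7 genes at day 4, 3 at day 6, 7 at day 8 and 4 at day 10, against 3.75%, 3.47%, 2.23% and 2.75%. All 10 comparisons share the 5 intact libraries, and the sign of the difference was negative for all 7 genes in each of them.

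Pmp22 was at 18155, 5608, 1918, 8470.5 and 3580.1 CPM in intact libraries 0, 1, 3, 4 and 5. In distal SCs it was at 2282, 5066 and 5406 CPM at day 1, at 1011, 1119 and 1495 CPM at day 2 and at 324, 373 and 318 CPM at day 4. Day 1 thus overlapped intact, every day 2 library lay below every day 1 and intact library, and every day 4 library lay below every day 2 library. Distal levels then stayed between 214 and 747 CPM at days 6, 8 and 10. The log2 fold change from intact was -0.83 at day 1 (SE 0.59, edgeR adjusted p = 0.979), -2.64 at day 2 (SE 0.64, edgeR adjusted p = 0.0533) and -4.48 at day 4 (SE 0.71, edgeR adjusted p = 0.000626). It was -4.19, -4.16 and -4.12 at days 6, 8 and 10, with edgeR adjusted p of 0.00163, 0.00327 and 0.0037. In the bridge it was at 456, 351 and 502 CPM at day 4, 266, 296 and 1310.5 CPM at day 6, 745, 390.2 and 221 CPM at day 8, and 1277, 868 and 454 CPM at day 10. All bridge libraries were below all intact ones at each day, and the log2 fold changes of -4.11, -3.60, -4.06 and -3.12 all passed the edgeR test.

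Pmp22 was the only one of the 7 that passed at all 8 comparisons from day 4 on. Intact library 0 held the highest Pmp22 level, and without it the log2 fold change from intact at day 4 was -3.81 in distal SCs and -3.46 in bridge SCs, both still past the threshold. Its call was lost at day 10 without distal library 3 (adjusted p = 0.0504), at bridge day 6 without library 1 (0.0647), at bridge day 10 without library 3 (0.13), and at all 8 when only the groups compared entered the fit, where adjusted p lay between 0.0511 and 0.329. Leaving out the 4 libraries rich in Rn45s kept all 8 calls of Pmp22, with log2 fold changes between -2.45 and -3.69.

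Mbp was at 9764, 4018, 3894, 5552 and 1620.1 CPM in the intact libraries, at 1142, 1959 and 3336 CPM at day 1 and at 1139, 1691 and 1869 CPM at day 2. At day 4 it was at 185, 77.9 and 237 CPM, below every day 2 library. The fall of Mbp between days 2 and 4 was thus without overlap, as those of Pmp22 between days 1 and 2 and between days 2 and 4 were. Pllp also fell without overlap between each of these pairs of days, and Mal and Prx between days 2 and 4. How many of all genes did so between these days was not computed. Between days 1 and 4, 7.87% of genes tested fell without overlap. Against intact, the log2 fold change of Mbp was -1.67 at day 2 (SE 0.94, edgeR adjusted p = 0.634) and -4.90 at day 4 (SE 1.13, edgeR adjusted p = 0.0176). It passed as lower at days 4, 6, 8 and 10 in distal SCs and at days 4 and 8 in the bridge, with log2 fold changes from -4.68 to -5.82. At bridge days 6 and 10 it was -3.83 (edgeR adjusted p = 0.066) and -3.95 (edgeR adjusted p = 0.0589).

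Mal and Prx passed at day 4 in distal SCs, with log2 fold changes of -4.12 (SE 0.92, edgeR adjusted p = 0.0141) and -6.55 (SE 1.49, edgeR adjusted p = 0.0164). Mal was at 189 to 2021 CPM in intact and at 29.6, 41.3 and 76.5 CPM at distal day 4. Prx was at 195 to 579 CPM in intact and at 2.08, 6.99 and 0.728 CPM at distal day 4. Pllp also passed there (-5.63, SE 1.33, edgeR adjusted p = 0.0219) and at bridge days 4, 6 and 10, but its intact libraries 0, 1, 3, 4 and 5 were at 2919.8, 805, 82.3, 346 and 167 CPM. The highest of these were the libraries rich in Rn45s, and their part in the result was not tested. Without intact library 0 the log2 fold change of Pllp at distal day 4 was -4.25 (edgeR adjusted p = 0.0658). Without the 4 libraries rich in Rn45s it was -3.41 (edgeR adjusted p = 0.115), and neither value passed. Mag was at 28.7 to 147 CPM in intact and at 1.89, 0 and 0.437 CPM at distal day 4, and at no day or site did it pass the edgeR test. Its day 4 log2 fold change of -6.61 had an SE of 2.31 (edgeR adjusted p = 0.134).

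Cnp took another course. It was lowest at day 2, at 41.9, 177 and 173 CPM against 376 to 1559 CPM in intact (log2 fold change -2.83, SE 0.74, edgeR adjusted p = 0.089), and stood at 209.6, 242 and 319 CPM at day 4 and at 387, 260.5 and 601 CPM at day 6. The smallest day 2 value came from the library with the highest share of Rn45s. Cnp passed the edgeR test at no day in either site. Its level in distal SCs was 44.7% of intact at day 6 and 29.9% at day 10, while at the same days Pmp22 was at 5.49% and 5.74% and Mbp at 3.89% and 1.85%.

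**Figure D2:**
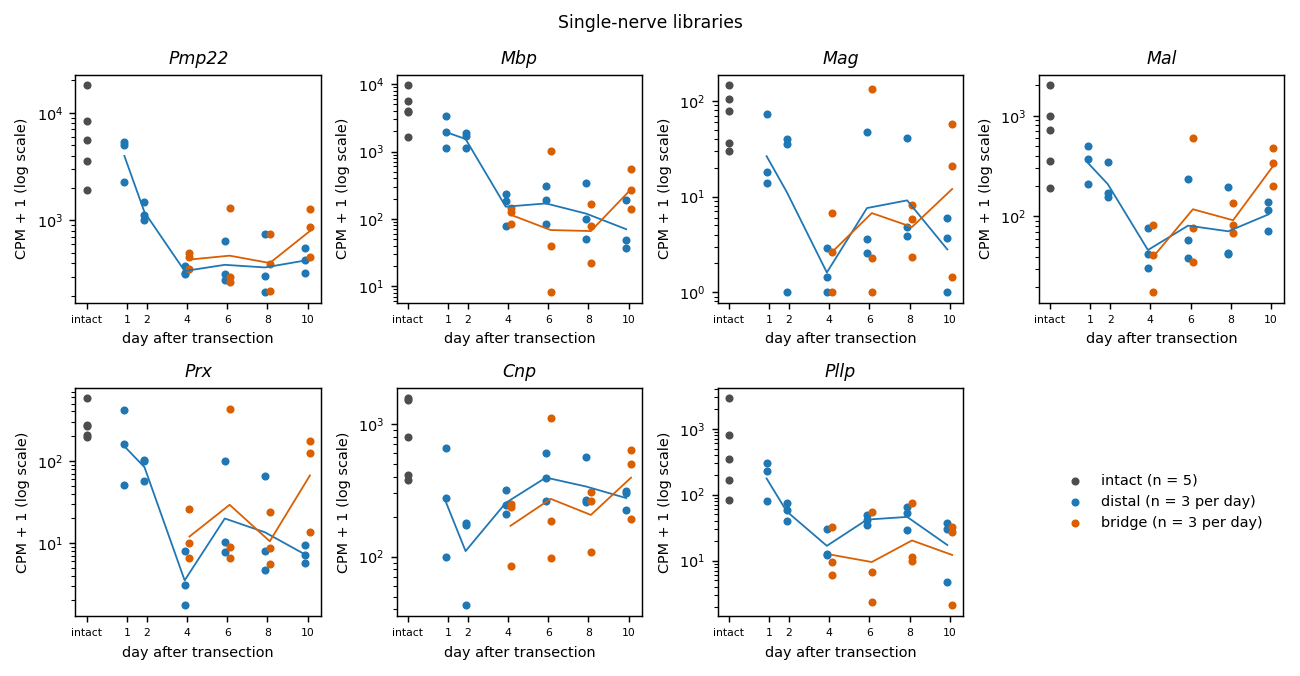
Levels of each gene in the single-nerve libraries as CPM + 1 on a log axis against the day after transection, with intact at the left, points for libraries and lines through the geometric means for distal and bridge SCs. Pmp22, Mbp, Mal, Prx and Pllp stand lower at day 4 than at any earlier day in all 3 distal libraries, and Cnp is lowest at day 2.

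The direct comparison of distal day 4 with day 1 does not use the intact libraries. All 7 genes had a negative sign there, and 6 of 7, all but Cnp, had every day 4 library below every day 1 library, which held for 7.87% of genes tested. The edgeR test called none of the 7 (6 at an unadjusted p under 0.05, and 5 by DESeq2), and it called 0.0193% of all genes. Of the 15519 genes tested, 1431 were at an unadjusted p under 0.05 and DESeq2 called 455. Pmp22 was closest, with a log2 difference of -3.65 (SE 0.71, edgeR adjusted p = 0.0536), followed by Prx with -6.00 (SE 1.49, edgeR adjusted p = 0.273). For Cnp the difference was -0.41 (SE 0.73), with a sign that turned when 1 library was left out. Between days 4 and 10 in distal SCs edgeR called none of the 7 and 0% of all genes. None of the 7 was at an unadjusted p under 0.05 or called by DESeq2, against 707 and 201 of the genes tested. The log2 differences there ran from -0.86 for Mbp to 1.67 for Mag, each smaller than its SE except for Mal (1.13, SE 0.85).

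The day 4 calls also rested on single libraries. Without 1 of the day 4 distal libraries, 1 or 2 of the 7 passed in place of 5. Without both libraries of animal 19, only Pmp22 passed at day 4, with a log2 fold change of -4.45 in distal SCs (edgeR adjusted p = 0.00924) and -3.90 in bridge SCs (edgeR adjusted p = 0.0163). Without the libraries rich in Rn45s, 3 of the 7 passed at day 4 in each site.

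**Figure D3:**
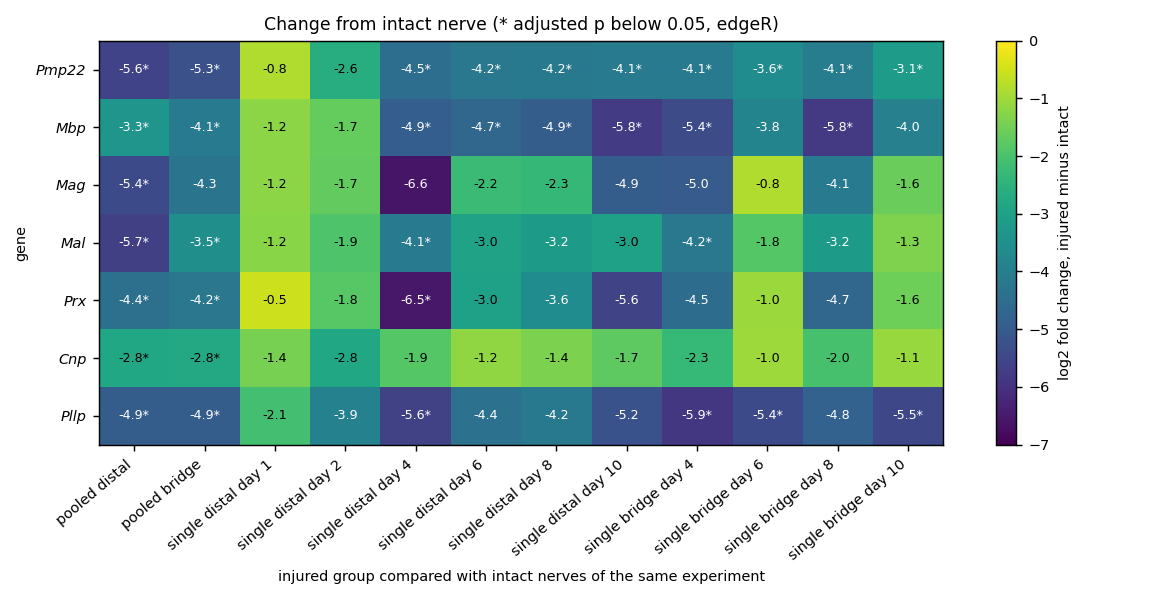
Grid of log2 fold changes from intact nerve, with 1 row per gene and 1 column per injured group of the pooled and single-nerve experiments, the value printed in each cell, colour for its size and a star where the edgeR adjusted p was under 0.05. Values lie between -4.93 and -5.69 for Pmp22, Mal and Pllp in pooled dSCs and between -0.54 and -2.09 for all 7 genes at distal day 1, and Pmp22 is starred in every column from day 4 on.

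In the bridge, the level of all 7 genes was higher at day 10 than at day 4 by its sign, although that of Pllp turned between settings (-0.24 to 1.47). Markers of other cells moved between the same days. The 5 fibroblast markers were all lower at day 10 by sign (median log2 difference -1.24, 4 at an unadjusted p under 0.05), as were all 7 macrophage markers tested (0 at that p). The 3 perineurial markers were each at an unadjusted p under 0.05, with 2 of them lower at day 10 (median log2 difference -1.25). Of the 5 SC markers, 4 were at that p and 1 was lower by sign (median log2 difference 1.75). Of the 5 endothelial markers, 2 were at that p and 0 were lower by sign (median log2 difference 1.86). None of these passed the edgeR test after adjustment, and their part in the difference was not tested. Mal alone had no overlap between the days, from 81.5, 40.6 and 16.7 CPM at day 4 to 473, 337 and 199.8 CPM at day 10 (log2 difference 2.86, SE 0.90, edgeR adjusted p = 0.478). Non-overlapping libraries with the higher level at day 10 were found for 6.46% of genes tested. Prx was at 25.1, 8.98 and 5.58 CPM at day 4 and at 174, 124 and 12.5 CPM at day 10, so that 1 day 10 library lay within the day 4 range. By the edgeR test none of the 7 passed and 2 were at an unadjusted p under 0.05. Of the 15519 genes tested, edgeR called 0.0322%, and 1374 were at that unadjusted p. DESeq2 called 1 of the 7, Mal, and 672 of all genes. Whether the change from day 4 to day 10 differed between bridge and distal SCs was tested as an interaction. It was called by edgeR for none of the 7 and for 0% of genes (0 of the 7 at an unadjusted p under 0.05 and 0 by DESeq2). Of all genes tested, 717 were at an unadjusted p under 0.05 and DESeq2 called 317. The estimates for Mbp, Prx, Mal, Mag, Cnp and Pmp22 were 2.31, 2.00, 1.73, 1.71, 1.10 and 0.64, with SEs of 1.41, 1.72, 1.20, 2.67, 1.03 and 0.90, and those for Mag and Pllp turned sign between settings.

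Over days 4 to 10 together, bridge minus distal differed by 1.72 on the log2 scale for Prx (SE 0.62, edgeR adjusted p = 0.282), by 0.52 for Pmp22 (SE 0.32) and by 0.67 for Mal (SE 0.42). No gene of the 7 passed the edgeR test, which called 0.103% of all genes. At an unadjusted p under 0.05 there was 1 (Prx), against 1398 of the 15519 genes tested. DESeq2 called 0 of the 7 and 579 of all genes. The same mice gave both sites, so 10 animals could also be paired. In these pairs the bridge library was the higher one in 7 of 10 for Prx, 6 for Mal, 5 for Pmp22 and Cnp, 4 for Mag and 3 for Mbp and Pllp. The median log2 differences were 0.68 for Prx, 0.56 for Mal, 0.21 for Pmp22, -0.23 for Cnp, -0.43 for Mbp, -0.47 for Mag and -1.85 for Pllp. The day 10 bridge library kept out of these pairs, library 0, was above distal library 0 of that day for all 7 genes. Mbp was at 555 against 47.5 CPM there, Prx at 174 against 4.70 CPM and Pllp at 25.8 against 3.66 CPM. A fit with the animal as a block gave 0.87 for Prx (SE 0.55, edgeR adjusted p = 0.558) and -1.72 for Pllp (SE 0.65, edgeR adjusted p = 0.313). In that fit the differences for Mbp and Mag were -0.80 and -0.64, whereas the fit without the block gave 0.32 and 1.14. The fit without the block also used the libraries outside the pairs, so the fits differed in libraries as well as in the block.

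**Figure D4:**
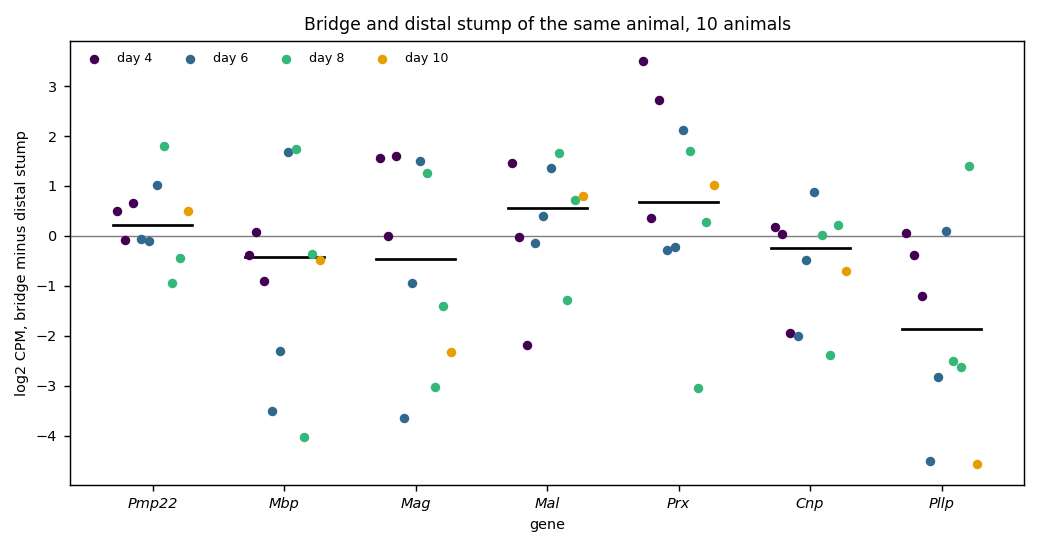
Difference in log2 CPM between the bridge and distal libraries of the same animal for each of the 7 genes, with 1 point per animal (10 animals), coloured by day, and a bar at the median. Points lie on both sides of 0 for every gene, and 7 of 10 lie above 0 for Prx.

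In several groups 1 library stood above its group mean for all 7 genes. Within the bridge day 6 libraries, Mbp was at 7.15, 37.9 and 1001 CPM, Prx at 5.53, 7.86 and 428 CPM, Mag at 0, 1.30 and 132 CPM, and Cnp at 97.0, 186 and 1101 CPM. Library 3, from animal 23, was above its group mean for all 7 genes, on average by 3.15 on the log2 scale. The distal library of the same animal and day was above its own group mean by 1.35 for all 7. Without that bridge library, 4 of the 7 genes passed as lower than intact at bridge day 6 in place of 2, with log2 fold changes of -4.68 for Pmp22, -7.70 for Mbp, -3.86 for Mal and -7.81 for Pllp. Day 8 distal library 1 (1.44) and day 10 bridge library 0 (1.22) also stood above their groups for all 7.

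Over the 12 pooled libraries, the deviations from the group means correlated with r from 0.242 to 0.942 (median 0.704) over the 21 pairs of genes, highest for Mbp with Prx. Over the 35 single-nerve libraries r ran from 0.416 (Mag with Pllp) to 0.808 (Pmp22 with Mal), with a median of 0.665. These are descriptions over libraries that share mice, depth and normalization, and r over pairs of other genes was not computed. The macrophage markers summed to 684 CPM in the bridge library of animal 23, the lowest among the injured libraries, to 1741 CPM in its distal library, to 2724 CPM in day 8 distal library 1 and to 852 CPM in day 10 bridge library 0. Each of these was the lowest of its group. Other groups went the other way. Day 4 bridge library 0, above its group mean for all 7 genes by 1.01 on average, held the highest sum of its group (9866 CPM), and so did day 1 distal library 2 (0.868 and 4635 CPM). The dSC library of pool 3, above its group by 1.95, was at 9916 CPM, the second highest of the dSCs, while the bSC library of pool 5 had the lowest sum of the bSCs (1739 CPM) and lay below its group mean for all 7 genes. The part of macrophage RNA in the spread was not tested.

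Macrophage markers also differed between the groups. Their summed level was 144 to 4004 CPM in pooled iSCs, below that of every dSC library, and 165 to 852 CPM in single-nerve intact libraries against 684 to 11241 CPM in injured ones. Among pooled iSCs, the library of pool 5 had the highest summed level of these markers and the lowest level of each of the 7 genes. Of the 8 macrophage marker symbols, all but Adgre1 were listed in the count files, and these 7 were tested. By edgeR 1 passed as higher in pooled dSCs and 0 in bSCs, with 4 and 0 at an unadjusted p under 0.05. In the single-nerve distal libraries 3, 3, 7, 5, 1 and 2 of these 7 markers passed as higher than intact at days 1, 2 and 4 and then days 6, 8 and 10, and in the bridge 6, 4, 2 and 5 at days 4, 6, 8 and 10. All 7 were at an unadjusted p under 0.05 in each of these 10 comparisons, and their part in the levels of the 7 genes was not tested. For 6 of the 7 genes, all but Mal, the bSC and dSC libraries overlapped. Sox10, the SC transcription factor, was itself at 36.4% of the iSC level in dSCs and 38.2% in bSCs, so its level fell less than that of any of the 7 genes. Endothelial markers reached 2364 CPM in the single-nerve intact libraries. Of the defining oligodendrocyte markers, the myelinating cells of the central nervous system that share Mbp, Mag, Mal and Cnp, Mog was at 0 in 10 of 12 pooled and 32 of 35 single-nerve libraries and Ermn in 12 and 34, while Mobp was at 0 in 9 and 31 and Opalin in 11 and 30. Cldn11, a tight junction gene, was at 0 in only 1 pooled and 9 single-nerve libraries and reached 81.2 and 27.1 CPM. It was the 1 oligodendrocyte marker tested in the pooled libraries, and it passed as lower in bSCs than in iSCs (log2 fold change -4.70, edgeR adjusted p = 0.0302).

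**Figure D5:**
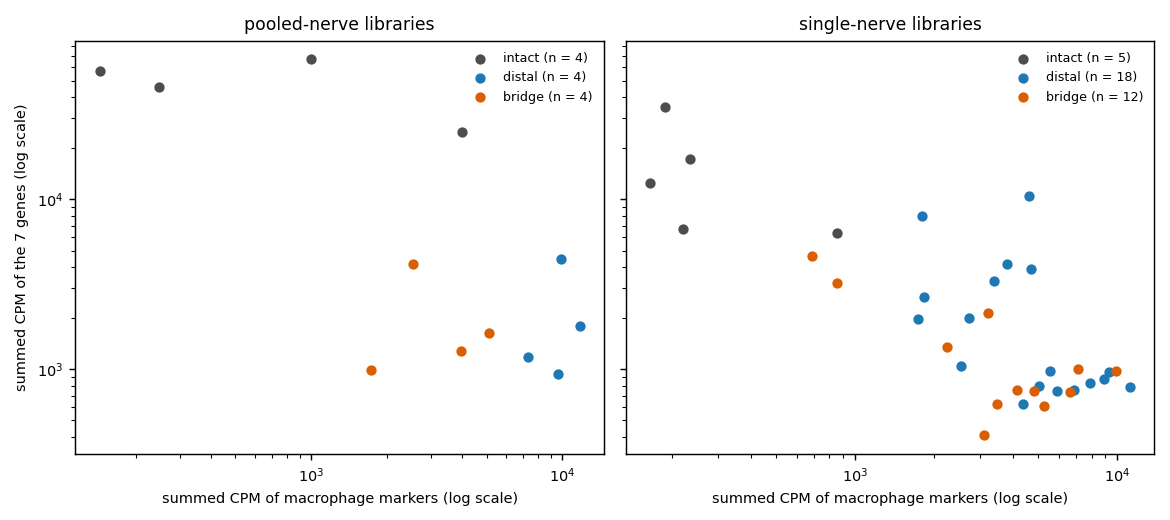
Summed level of the 7 genes against the summed level of the macrophage markers in each library, in CPM on log axes, for the pooled and single-nerve experiments by group. In the single-nerve panel the intact libraries lie at the upper left, and the bridge library with the highest level of the 7 genes is the day 6 library of animal 23, at 684 CPM of macrophage markers.

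Other genes of the myelin sheath were taken from a list of 22, all of them tested. In pooled dSCs and in bSCs 16 of 22 passed as lower than in iSCs and 0 as higher, with a median log2 fold change over the list of -3.22 and -2.61, against -0.02 and -0.16 over all genes tested and -4.93 and -4.23 over the 7. Among those called in dSCs, large falls were those of Cdh1, the gene of E-cadherin, from 96.0 to 0.0706 CPM, and of Fa2h, a hydroxylase of myelin lipids, with a log2 fold change of -6.89 (edgeR adjusted p = 0.0417). In bSCs they were those of Nfasc (-7.85, edgeR adjusted p = 0.000655) and Drp2 (-5.99, edgeR adjusted p = 0.00224), the latter a partner of periaxin. Nfasc was the only one of the 22 that passed between bSCs and dSCs (-4.38, edgeR adjusted p = 0.021).

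In the single-nerve libraries 2 of the 22 passed at distal day 4 and at bridge day 4, and 0 or 1 at each other day and site. Cd9, the gene of a tetraspanin, was called at days 4 and 6 in both sites, with log2 fold changes from -3.48 to -4.01. Of 5 regulators of myelination (Egr2, Sox10, Pou3f1, Nab1 and Nab2), 2 passed as lower in each pooled comparison with iSCs. These were Egr2, at 289 CPM in iSCs, 26.8 in dSCs and 62.2 in bSCs (edgeR adjusted p = 0.000583 and 0.002), and Sox10 (edgeR adjusted p = 0.0471 and 0.0302). None of the 5 passed the edgeR test in the single-nerve comparisons with intact, with 0 or 1 at an unadjusted p under 0.05 in each.

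The genes whose levels followed the 7 most closely were sought by Pearson r between log2 CPM and the mean standardised profile of the 7 over the 35 single-nerve libraries, among 13717 genes. The median r over all genes was -0.049. The 10 closest included Fa2h (r = 0.883), Limch1 (0.866), Ndrg1 (0.845), Smco3 (0.837), Cldn19 (0.834), Art3 (0.827), BC049715 (0.826), Tmem229a (0.823) and Rnf167 (0.82). Fa2h, Smco3, BC049715 and Tmem229a had low levels, with a mean log2 CPM of 0.92, 0.42, -0.66 and -1.06 over the single-nerve libraries. Mutations of human NDRG1 are a known cause of demyelinating neuropathy, and claudin-19 seals the myelin loops. Over the 12 pooled libraries the same 10 genes had r between 0.759 (Rnf167) and 0.979 (Ndrg1), and 7 of the 10 were also among the 10 closest by Spearman rank. The 100 closest genes included 10 of the 22 other myelin genes. These correlations describe libraries that share groups and depth.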

How the data were processed

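The authors sorted tdTomato+ SCs, made Smart-seq2 libraries from polyA RNA, and per the labels aligned reads with TopHat2 2.0.11 to mm9 and counted reads per gene with HTSeq. The deposited values are raw counts per gene. Lanes of 1 library were summed, and 92 spike-in rows and the HTSeq summary rows were left out (48.1% to 54.2% of reads fell in no feature). Each experiment was fitted on its own with edgeR 4.0.16 (R 4.3.3; TMM, filterByExpr with a minimum count of 10, quasi-likelihood test, adjusted p under 0.05 over all genes), all its groups in 1 fit. DESeq2 1.42.0, other filters and scalings, a replicate block and leaving out libraries were alternatives. SE is the log2 fold change divided by the root of F. p-values measure the spread between these libraries, and counting error does not cover PCR duplicates. Pairs come from the animal numbers in the labels: deviations of same-numbered libraries correlated with a mean r of -0.0143 (10 pooled pairs) and 0.1462 (11 single-nerve pairs), against 0.0045 and -0.0018 otherwise. Levels of genes are CPM, log2 CPM used a prior count of 2. All 7 genes are named in every comparison, with up to 3 other myelin genes of largest change among those called and the 10 most alike genes; some of these are not reported here. The 7 genes and all lists were chosen with earlier results of these data known. On simulated data with 200 changed genes of 4-fold change, 46 of 200 were recovered among 13751 genes (pooled distal against intact) and 12 of 200 among 15519 (single-nerve).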

Additional observations from a re-analysis of the deposited data

How the results depend on the processing

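Over the alternatives, results for single genes kept their direction and side of the threshold in 1646 cases, lost the threshold in 105, passed it in 48 and turned sign in 40. Counts of the 7 genes called stayed within 1.5 times in 198 cases and moved in 71. With DESeq2, 1 was called for pooled bridge against distal, 3, 4, 5 and 5 for distal days 2, 6, 8 and 10, 7 and 6 for bridge days 4 and 8, 5 for distal day 4 against day 1 and 1 for bridge day 10 against day 4. DESeq2 also called more of all genes than edgeR in each of these comparisons. Without a filter on low counts, 1 was called at distal day 2 and 1 for day 4 against day 1. The filter of the paper (100 counts in 85% of libraries) is described in its methods for single-nerve data, where it removes Mag, Prx and Pllp. With it, 1 and 1 were called in the same comparisons and 3 at distal day 4. On the pooled libraries, where it was not used in a fit, it would remove Mag. With only the groups compared in the fit, 2 were called at distal day 4 and 0 at distal days 6, 8 and 10 and at all bridge days. Further settings were chosen after seeing the data. Without both animal 19 libraries 1 was called at day 4 in each site, and without the libraries over 10% Rn45s 3 at distal day 4 and 1 at distal and bridge days 6, 8 and 10.

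Leaving out 1 library at a time, the number called ranged from 4 to 7 for pooled dSCs, 5 to 6 for bSCs and 0 to 2 between them. It ranged from 0 to 1, 1 to 5, 1 to 2, 1 to 2 and 0 to 3 at distal days 2, 4, 6, 8 and 10 and from 1 to 4, 0 to 4, 1 to 2 and 0 to 2 at bridge days 4, 6, 8 and 10. The 0 came without distal day 10 library 3, bridge day 6 library 1 and bridge day 10 library 3. The signs that turned belong to differences between injured groups, none of which passed the edgeR test. For pooled bridge against distal, leaving out 1 library gave log2 differences of -0.0843 to 1.03 for Pmp22, -2.03 to 0.0427 for Mbp, -1.30 to 0.72 for Prx, -0.41 to 0.36 for Cnp and -0.39 to 0.46 for Pllp, and the replicate block by pool -0.49, -0.0932 and 0.0311 for Prx, Cnp and Pllp. For single-nerve bridge against distal they were -0.70 to 0.56 for Mbp, -0.42 to 1.86 for Mag and -0.53 to 0.0102 for Cnp. There the replicate block by animal gave -0.80 for Mbp and -0.64 for Mag with 10 pairs, -0.46 and -0.21 with 11, and -0.93 and -0.65 without animal 19. Cnp ranged from -0.83 to 0.51 for distal day 4 against day 1, and Pllp from -0.14 to 1.02 and -0.24 to 1.47 for day 10 against day 4 in distal and bridge. For the interaction, Mag ranged from -0.22 to 3.32 and Pllp from -0.73 to 1.12, and Pllp was -0.0717 with DESeq2, -0.0725 with its size factors, -0.0542 without a filter and -0.0966 without animal 19. The causes were not tested.

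Over all genes, the number called moved more widely: 732 for pooled dSCs (287 to 1393 over alternatives), 2022 for bSCs (968 to 3114), 746 between them (236 to 1939), 268 at distal day 4 (43 to 1471) and 244 at bridge day 4 (6 to 1286). Replicate numbers pair pools by label but without shared deviation. With the block by pool, 7, 7 and 0 of the 7 genes were called in the pooled comparisons. With 3 injured and 5 intact single-nerve libraries per comparison, 12 of 200 genes changed 4-fold were recovered in the simulated data. Few changes of that size can thus be called, and other sizes were not simulated.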
